A study of Sesuvium portulacastrum with 18 samples.

Results

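Among the root transcripts of Sesuvium portulacastrum, a salt-tolerant plant of saline soils (a halophyte), 51 were low at 8 h after the change to salt medium and high both before it and at 24 h. They were chosen from 87369 root transcripts with at least 1 count, out of 176664 such transcripts in root and shoot together. A transcript was a member when its 0 h and 24 h means were each at least 5 CPM and its 8 h mean was at least 3-fold below both. In addition, the 24 h mean had to lie within 2-fold of the 0 h mean, and each 8 h library below every 0 h and 24 h library. CPM here is the count scaled to library size, with a further scaling factor per library. These same values chose the members, so the low level at 8 h and the return at 24 h are a description and carry no test.

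Seedlings were grown from stem cuttings in half-strength MS medium under a 12 h photoperiod. At 15 days, roots were taken at once after a change to control medium (0 h), or 8 h and 24 h after a change to medium with 250 mM NaCl. Each time had 3 root libraries, described by the submitters as biological replicates, and the labels name no genetic change in any group. The samples hold no plants kept in control medium for 8 h or 24 h, and 24 h is a full day after the start whereas 8 h is not. Salt and time since the change of medium therefore cannot be told apart at either time, nor can hour of the day at 8 h.

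Roots are the organ that meets a saline medium first. Salt around the root lowers the water potential outside and brings sodium and chloride to the root cells, and halophytes are known for holding these ions in vacuoles while balancing them with organic solutes. Plant transcript levels can move briefly after such a change before they settle, and many plant transcripts also follow the time of day. The files name each transcript by an ID alone and pair no ID with a gene name, a function or a sequence. The members are therefore described by level, time course, replicate spread and place among the IDs, and the labelled tissue could not be checked against root markers. In bulk RNA, fewer cells of a type and less RNA per cell cannot be told apart.

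The 9 root libraries held 8773677 to 13861135 estimated counts, and 34721 transcripts passed the filter on low counts, all 51 members among them. The 8 h libraries were not alike in this pattern. Replicate 1 was the highest of the 8 h libraries in 30 of the 51 members (58.8%), and in 30.6% of the 16658 root transcripts with means of at least 5 CPM at 0 h and 24 h. The 8 h replicate 2 was the highest in 4 members (7.84%), where it was in 28.2% of those transcripts, and replicate 3 in 17 (33.3%), where it was in 41.3%. Without 8 h replicate 1, edgeR called 50 of the 51 members lower at 8 h than 0 h, where 6.61% of tested transcripts were. For 24 h against 8 h it called 50 higher, where 4.30% of tested transcripts were. The members were chosen on both contrasts with this library included, so these counts say nothing beyond that choice. In the 4 transcripts named below, the log2 fold change of 8 h over 0 h without 8 h replicate 1 was -3.83, -3.55, -2.25 and -2.86, in the order described.

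The deepest and most abundant member was R_Transcript_58739.p1. Its level was 849, 955 and 1055 CPM in the 0 h libraries, 56.9, 55.8 and 78.9 CPM at 8 h, and 342, 751 and 479 CPM at 24 h. Every 8 h library lay far below the others, and every 24 h library stayed below the 0 h libraries. The log2 fold change of 8 h over 0 h was -3.90 (SE 0.26), and that of 24 h over 8 h was 3.04 (SE 0.25). Of the 24 h libraries, replicate 2 was nearest to the 0 h level.

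The member with the next lowest 8 h level relative to 0 h was R_Transcript_72577.p1. It had 69.9, 81.3 and 74.2 CPM at 0 h, 3.31, 6.83 and 6.09 CPM at 8 h, and 42.8, 40.9 and 45.1 CPM at 24 h. Here the 24 h libraries were close to each other and all below the 0 h libraries. The log2 fold change was -3.77 (SE 0.19) for 8 h over 0 h and 2.97 (SE 0.19) for 24 h over 8 h.

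The next most abundant members were R_Transcript_53330.p1 and R_Transcript_8233.p1, which were alike at 0 h and differed at the other times. R_Transcript_53330.p1 had 458, 490 and 499 CPM at 0 h, 110, 106 and 98.4 CPM at 8 h, and 360, 314 and 333 CPM at 24 h. Its log2 fold change was -2.21 (SE 0.11) for 8 h over 0 h and 1.69 (SE 0.11) for 24 h over 8 h, and its 24 h libraries lay wholly below the 0 h libraries. R_Transcript_8233.p1 had 489, 408 and 457 CPM at 0 h, 60.6, 58.8 and 66.5 CPM at 8 h, and 345, 426 and 453 CPM at 24 h. Its log2 fold change was -2.87 (SE 0.13) for 8 h over 0 h and 2.72 (SE 0.13) for 24 h over 8 h. For this transcript the 24 h and 0 h libraries overlapped. Both transcripts had 8 h libraries that differed little from each other, with a mean ± SD of 105 ± 5.64 and 62.0 ± 4.06 CPM (n = 3).

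**Figure D1:**
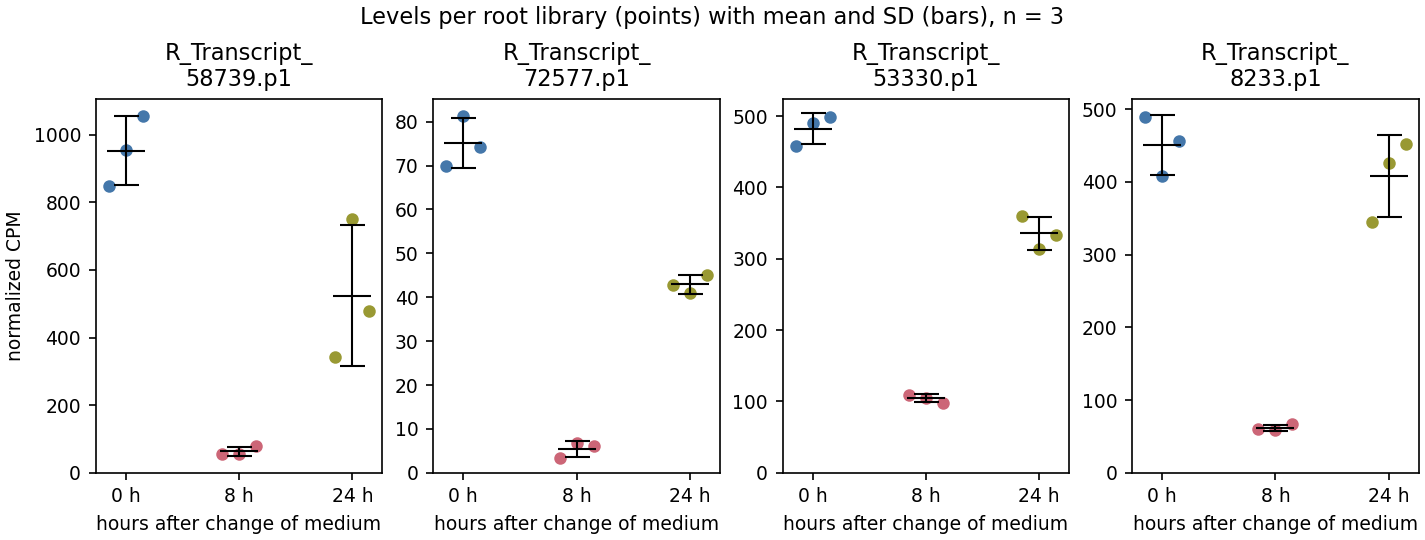
Level in normalized CPM (y axes, each from 0) of the 4 named transcripts in each root library at 0 h, 8 h and 24 h (x axes); points are libraries, bars are mean and SD of 3. All 8 h points lie below all points of the other times, and the 24 h points reach the 0 h range only for R_Transcript_8233.p1.

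Most members were of moderate abundance. The 0 h means ran from 5.95 to 953 CPM with a median of 18.4 CPM, the 8 h means from 1.10 to 105 CPM with a median of 4.66 CPM, and the 24 h means from 5.01 to 524 CPM with a median of 21.3 CPM. At 0 h, 4 members were at 100 CPM or more, 8 between 50 and 100 CPM, 29 between 10 and 50 CPM and 10 under 10 CPM. The 8 h levels rested on 11.7 to 1138 estimated counts per library, with a median of 51.7, so the lowest members carry the largest counting error.

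The 0 h mean was between 3.02 and 14.9 times the 8 h mean, with a median of 4.86. It was under 4-fold in 15 members, between 4-fold and 6-fold in 23, between 6-fold and 10-fold in 9 and at least 10-fold in 4. The 24 h mean was between 3.01 and 10.2 times the 8 h mean, with a median of 4.05. Both differences reached 5-fold in 11 members and 8-fold in 2. The median 0 h to 8 h fold was 4.35 in the 10 members under 10 CPM at 0 h, 4.86 in the 29 between 10 and 50 CPM, 5.07 in the 8 between 50 and 100 CPM and 5.95 in the 4 above. The lowest fold in these classes was 3.02, 3.05, 3.43 and 4.37, from the lowest to the highest level. The 0 h mean that forms the classes also enters the fold, and the rule bounds the fold from below. A trend with level was therefore not tested. Over the 16658 transcripts at or above the level floor, the median 0 h to 8 h fold, among those with counts at 8 h, was 1.01.

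**Figure D2:**
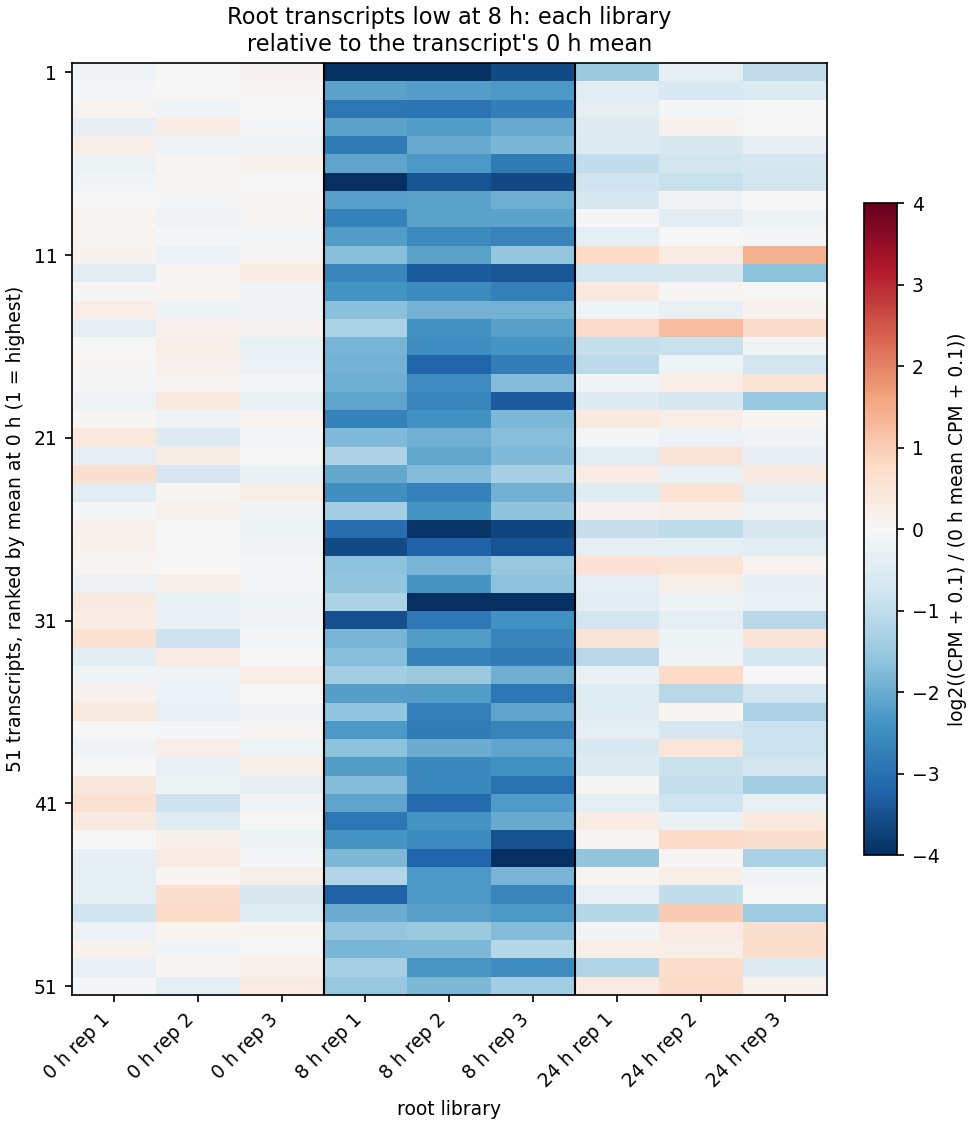
Level of each of the 51 members (rows, ranked by 0 h mean) in each root library (columns) as log2 of the ratio to its own 0 h mean, with 0.1 CPM added to both; blue is lower and red higher than the 0 h mean. The 8 h columns are blue in every row, and the 24 h columns are pale, with 35 members below and 16 above their 0 h mean.

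At the edge of the fold threshold, the member just inside had 83.7 CPM at 0 h, 16.1 CPM at 8 h and 48.4 CPM at 24 h, so that its smaller fold was 3.01. The transcript just outside had 8.08, 2.70 and 9.11 CPM, a smaller fold of 2.99. In all, 194 transcripts met every other condition and lay between 2-fold and 3-fold, so the set is the end of a continuous range. The return window also left transcripts out: 13 met every other condition but stayed at or below 0.5 of the 0 h mean at 24 h, and 1 was above the window, at 3.81 times its 0 h mean. The members inside the window ran from 0.528 to 1.89 times the 0 h mean. The order of the libraries alone removed 2 transcripts, and the level floor alone removed 310.

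**Figure D3:**
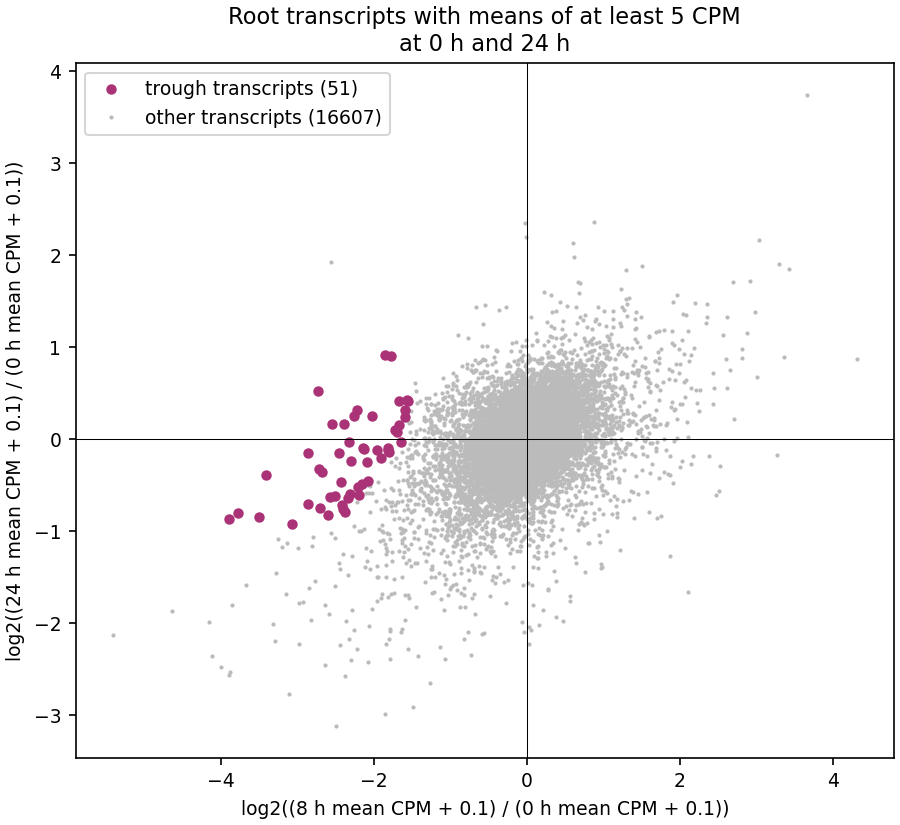
Each point is a root transcript with means of at least 5 CPM at 0 h and 24 h; the x axis is the log2 ratio of the 8 h to the 0 h mean and the y axis that of the 24 h to the 0 h mean, with 0.1 CPM added. The 51 members lie at the left edge of the cloud around the level of no change at 24 h, and of the transcripts that met every other condition 13 lie below the return window and 1 above it.

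In edgeR's quasi-likelihood test over all 34721 tested root transcripts, all 51 members were called lower at 8 h than at 0 h, where 6.99% of tested transcripts were called lower. For 24 h against 8 h, 50 of the 51 were called higher, where 5.34% of tested transcripts were. The rule used both contrasts, so these counts say nothing beyond the choice of members. The 1 member not called at 24 h against 8 h had 4.19, 12.4 and 5.23 CPM at 0 h, 1.77, 1.54 and 1.42 CPM at 8 h, and 3.23, 14.7 and 2.58 CPM at 24 h. In this transcript replicate 2 was high at both 0 h and 24 h.

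At 24 h most members stood near or below their 0 h level. The 24 h mean was below the 0 h mean in 35 of the 51 (68.6%), where it was in 49.2% of the 16658 transcripts at or above the level floor. The rule bounds this ratio, so the difference was not tested. The ratio of the 24 h to the 0 h mean had a median of 0.903. It was within 1.25-fold of equality in 22 members, under 0.8 in 22 and over 1.25 in 7. The 24 h and 0 h libraries did not overlap in 17 of the 51 members, where 32.2% of the 16658 transcripts at or above the level floor had no overlap. The 24 h libraries lay wholly below the 0 h libraries in 13 members and wholly above in 4, against 2667 and 2703 of all transcripts at or above the floor. In the other 34 members the libraries overlapped. The edgeR test of 24 h against 0 h called 8 members in either direction, where 7.38% of tested transcripts were called. It called 6 members lower and 2 higher, where 4.49% of tested transcripts were called lower and 2.89% higher. The tested transcripts include those below the level floor, where no member lies. The return window of the rule also bounds this contrast, so no more is read from these counts. The 2 called higher had 62.2 ± 8.24 CPM at 0 h, 18.1 ± 3.63 CPM at 8 h and 117 ± 44.9 CPM at 24 h, and 43.5 ± 8.95, 11.9 ± 5.38 and 82.4 ± 16.7 CPM at the same times (mean ± SD, n = 3). The 6 called lower had log2 fold changes of 24 h over 0 h between -0.87 and -0.52, and 3 of the 4 named transcripts were among them. Without 24 h replicate 1 only 1 member was called in either direction, without 0 h replicate 3 only 2, and without 0 h replicate 2, 24 h replicate 2 or 24 h replicate 3 it was 5 each time. Calls over all tested transcripts were fewer too, at 1297 without 24 h replicate 1, 1558 without 0 h replicate 3 and 1835, 1861 and 1501 without the other 3 libraries, against 2562 with all libraries.

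Summed over the members, the level was 3273, 3335 and 3457 CPM in the 0 h libraries, 564, 498 and 553 CPM at 8 h, and 2293, 2880 and 2645 CPM at 24 h. As a share of all estimated counts this was 0.331 ± 0.0193% at 0 h, 0.0536 ± 0.00321% at 8 h and 0.265 ± 0.0214% at 24 h (mean ± SD, n = 3). The 3 most abundant members made up more of the sum than all the others at 0 h. Without them the sums were 1477, 1482 and 1447 CPM at 0 h, 336, 278 and 309 CPM at 8 h, and 1246, 1389 and 1380 CPM at 24 h. The 24 h sums then came closer to the 0 h sums, still without overlap. The median member level was 20.0, 18.8 and 16.9 CPM in the 0 h libraries, 5.20, 3.75 and 5.24 CPM at 8 h, and 17.9, 21.8 and 17.6 CPM at 24 h, and here the 0 h and 24 h libraries overlapped.

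The members differed in how closely the libraries of a time agreed. The SD was a median of 17.6% of the mean at 0 h, 27.8% at 8 h and 21.7% at 24 h. The lowest library at 0 h or 24 h was at least 2-fold above the highest 8 h library in 35 members, and less than 1.25-fold above it in 2. The widest spread was in a member with 20.8, 13.4 and 14.3 CPM at 0 h, 6.62, 0.481 and 0 CPM at 8 h, and 11.7, 13.9 and 13.1 CPM at 24 h. Its 8 h replicate 1 was far above the other 8 h libraries, and the count of 0 in replicate 3 allows up to 0.213 CPM (3 counts, counting error only). At 24 h the highest library was over 3-fold above the lowest in 3 members, all with a 0 h mean under 10 CPM. One of them had 6.78, 10.8 and 7.99 CPM at 0 h, 2.36, 0.866 and 0.425 CPM at 8 h, and 2.79, 8.84 and 3.41 CPM at 24 h. Replicate 2 was the highest 24 h library in each of these 3, as it was in 23 of the 51 members and in 45.2% of transcripts at or above the level floor.

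To read the 3-fold difference in libraries that had no part in the choice, the rule was applied without 1 root library at a time. The chosen transcripts were then read in the library left out. A left-out 8 h library counted as low when it was at least 3-fold below both the 0 h and the 24 h mean, which the choice had used. A left-out 0 h or 24 h library counted as high when it was at least 3-fold above the 8 h mean, which the choice had used.

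The left-out 0 h libraries were high for 43 of 53, 40 of 51 and 46 of 53 chosen transcripts in replicates 1, 2 and 3, where 1.27%, 1.37% and 1.19% of all transcripts at or above the level floor were high. The left-out 24 h libraries were high for 34 of 53, 31 of 45 and 37 of 57, where 0.565%, 0.916% and 0.715% of all were. The left-out 8 h replicates 2 and 3 were low for 37 of 46 and 34 of 55 chosen transcripts, where 0.876% and 0.672% of all were low. In these 8 libraries the 3-fold difference was thus met by between 61.8% and 86.8% of the transcripts chosen without them. The difference was read against means that the choice had used, while the shares of all transcripts come from no such choice. Part of the gap between them is built in by the choice, and how much was not tested.

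The library of 8 h replicate 1 differed from the others in this reading. Without it 87 transcripts were chosen, 48 of the 51 members among them, and it was low by at least 3-fold for 27 of the 87 (31.0%), where 0.372% of all were. The median fold in it was 2.38, against 4.42 and 3.39 in replicates 2 and 3 when these were left out. It still lay below every 0 h and 24 h library for 76 of the 87. The rule thus chose more transcripts from the other 8 libraries than from all 9. This library also had the lowest total, 8773677 estimated counts, and the part of depth was not tested.

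**Figure D4:**
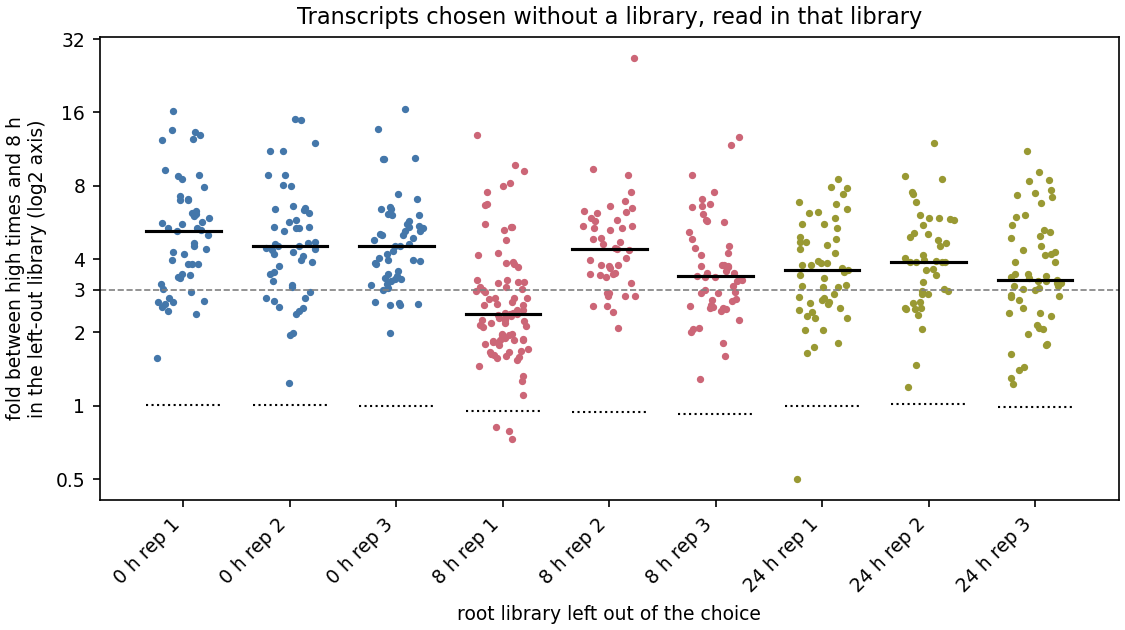
For each root library (x axis), the transcripts chosen without it and their fold in it (y axis, log2 scale): the smaller of the 0 h and 24 h means over the library for 8 h, or the library over the 8 h mean for 0 h and 24 h. Solid bars are medians of the chosen transcripts, dotted bars medians of all transcripts at or above the level floor, and the dashed line is 3-fold. The median lies above 3 in every library except 8 h replicate 1, at 2.38; 1 transcript at 0 is drawn at 0.5, and 1 transcript with no count in 8 h replicate 3 is not drawn.

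The rule used no information from the IDs. Of the 51 members, 48 (94.1%) carried the suffix .p1, and 93.5% of the transcripts at or above the level floor did. The sources used here do not say what the number and the suffix of an ID stand for, and reads of near-identical transcripts may be split between IDs. Even so, members were found close together: 10 of the 51 (19.6%) had another member within 5 ID numbers, in 4 runs, while 44 of the 16607 other transcripts at or above the level floor (0.265%) had a member that near. With each run counted once, 45 members remained.

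The longest run held 4 members within 12 consecutive numbers, and all 4 were above their 0 h mean at 24 h. The most abundant of them had 50.9, 51.8 and 45.3 CPM at 0 h, 9.34, 8.37 and 7.30 CPM at 8 h, and 65.03, 50.4 and 50.4 CPM at 24 h. The next had 35.8, 31.0 and 37.1 CPM at 0 h, 5.20, 6.35 and 9.85 CPM at 8 h, and 45.7, 41.3 and 36.8 CPM at 24 h. Across the run the 0 h mean was 4.76 to 5.92 times the 8 h mean, and the 24 h mean 1.12 to 1.25 times the 0 h mean, a narrow range beside that of all members.

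The other 3 runs were pairs, and in each of them both members stood below their 0 h mean at 24 h. R_Transcript_72577.p1 was paired with an ID 2 numbers away, which had 20.0, 17.7 and 16.5 CPM at 0 h, 1.42, 1.83 and 1.56 CPM at 8 h, and 13.7, 14.1 and 13.5 CPM at 24 h. The 0 h mean was 13.9 and 11.3 times the 8 h mean in this pair, which made both of them among the 4 deepest members. Another pair had consecutive numbers, with 0 h means of 40.4 and 7.52 CPM, 8 h means of 8.73 and 1.10 CPM and 24 h means of 26.5 and 5.85 CPM. The last pair shared 1 number and differed in the suffix, with 0 h means of 37.8 and 11.4 CPM, 8 h means of 6.16 and 2.16 CPM and 24 h means of 21.4 and 7.26 CPM.

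Transcripts that were no members but had nearby IDs were read in the same contrasts. Of 69 tested transcripts whose number was 1 to 5 away from that of a member, 21 fell at 8 h against 0 h and 2 rose (edgeR, adjusted p under 0.05). This is 30.4%, where 6.99% of all tested transcripts fell. For 24 h against 8 h, 18 of the 69 rose (26.1%) and 3 fell, where 5.34% of all tested transcripts rose. Both changes, lower at 8 h and higher at 24 h than at 8 h, were called in 13 of the 69, where 2.79% of all tested transcripts had both. Without 8 h replicate 1, 21 of the 69 fell at 8 h and 20 rose at 24 h against 8 h, where 6.61% and 4.30% of all tested transcripts did. Without 8 h replicate 2, 12 fell and 11 rose, where 4.34% and 2.35% of all did. Without 8 h replicate 3, 13 fell and 16 rose, where 4.50% and 3.90% of all did.

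The share was lower at greater distance in ID number. At a distance of 1 to 2, 10 of 28 fell at 8 h, with a median log2 fold change of -0.73 over all 28. At 3 to 5, 11 of 41 fell, with a median of -0.24. At 6 to 10, 8 of 75 fell, and at 11 to 50, 46 of 578 fell (7.96%). Transcripts near other IDs were read within 5 numbers alone. Of 2868 tested transcripts that near to the 2375 others called lower at 8 h, 533 fell at 8 h (18.6%) and 334 rose at 24 h against 8 h (11.6%). Of 1232 near the 920 others called both lower at 8 h and higher at 24 h against 8 h, 20.1% fell and 18.3% rose. Transcripts that fell near these others can themselves be among the others called lower, whereas the members' neighbours leave out every member. The shares thus have unlike bases, and the members' neighbours, at 30.4% and 26.1%, were not tested against them.

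**Figure D5:**
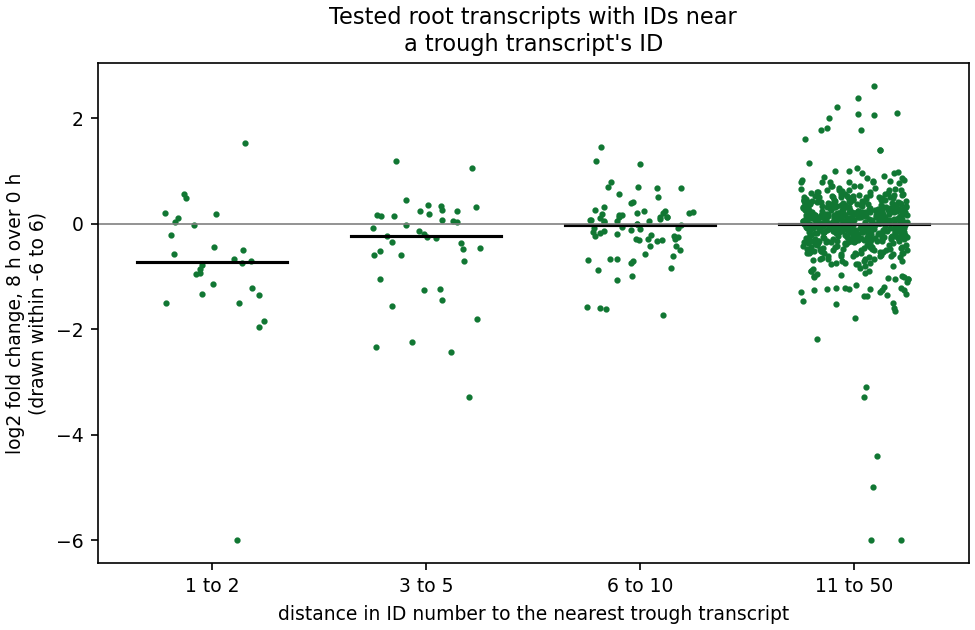
The log2 fold change of 8 h over 0 h (y axis, values beyond 6 drawn at the edge) of tested root transcripts that are no members, by distance in ID number to the nearest member (x axis); bars are medians. The median is -0.73 at a distance of 1 to 2 and -0.24 at 3 to 5, and lies near 0 farther away.

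The most abundant of the near neighbours, 2 numbers from a member, missed the rule because its 24 h mean was less than 3-fold above its 8 h mean. It had 1217 to 1374 CPM at 0 h, 352 to 363 CPM at 8 h and 729 to 784 CPM at 24 h. The libraries of the 3 times did not overlap. It fell by 1.84 on the log2 scale at 8 h against 0 h (SE 0.10, edgeR adjusted p = 1.12e-06) and rose by 1.08 at 24 h against 8 h (SE 0.10, edgeR adjusted p = 4.8e-05). Nearness did not always go with the pattern. Another neighbour, 2 numbers from a member, rose at 8 h, with 13.2 to 15.6 CPM against 4.24 to 5.34 CPM at 0 h, and had 4.18 to 5.56 CPM at 24 h (log2 fold change of 8 h over 0 h 1.52, SE 0.18, edgeR adjusted p = 0.000154).

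Only 1 tested transcript that was no member shared its number with a member. It had 404, 410 and 358 CPM at 0 h, 372, 435 and 467 CPM at 8 h, and 510, 484 and 558 CPM at 24 h, and 8 h against 0 h was not called (log2 fold change 0.12, SE 0.12, edgeR adjusted p = 0.582). Its partner was the member noted above for a high replicate 2 at both 0 h and 24 h, at 7.29 CPM on average at 0 h.

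The mirrored rule, with an 8 h mean of at least 5 CPM and at least 3-fold above both other times, was met by 141 root transcripts. Its floor lay on the 8 h mean alone, so the 141 have another base than the 51 members and were not compared with them. In the shoot table, which was normalized apart, 810 transcripts met the trough rule, or 4.74% of the 17092 at or above the level floor, where the 51 root members were 0.306% of 16658. Root and shoot IDs form separate sets, so it was not possible to ask which members also had a low level at 8 h in shoot.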

How the data were processed

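Estimated counts per transcript for 9 root libraries, 3 at each of 3 times, were deposited by the authors as whole numbers; rounding changed 0 values. Tools listed in the submitters' processing notes, without roles, are kallisto 0.45, Trimmomatic and edgeR 3.40.1; the sources used here state neither assembly nor use of strand. The authors also deposited a normalized signal, here called CPM: counts scaled to library size and divided by 1 factor per library, equal to the TMM factors of all transcripts with a count. It chose the members and gave their levels, and 0 columns were left over. The shoot table served only to count transcripts, with a count, at the level floor and meeting the rule.

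Counts were tested in R 4.3.3 with edgeR 4.0.16 (filterByExpr, minimum count 10; TMM; glmQLFit and glmQLFTest; 1 mean per time over all 9 libraries; two-sided; Benjamini-Hochberg over 34721 transcripts; threshold 0.05). Standard errors were derived from the log2 fold change and its F statistic. The code was tested on simulated data. DESeq2 1.42.0, other scalings, no filter, 2-group fits, a replicate block and left-out libraries were alternatives.

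The 4 IDs named are the 2 members lowest at 8 h relative to 0 h and the 2 next highest at 0 h, with at least 10 counts per library at 8 h on average. Members and rules were chosen with earlier results of these data known, and the comparison of nearby IDs after seeing the data. No gene list could be applied. No 2 libraries of a time agreed within sampling noise: chi-square per transcript was 4.22 to 21.5. Whether the replicates are separate plants is not stated, so p-values measure the spread between these samples.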

Additional observations from a re-analysis of the deposited data

How the results depend on the processing

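The number of root transcripts meeting the rule was 50 with library totals alone, 52 with DESeq2 size factors, 53 without the order of libraries and 34 with a 1.5-fold return window. It was 245 with 2-fold and 22 with 4-fold in place of 3-fold, and 78 with a floor of 2 CPM and 33 with a floor of 10 CPM. Leaving out 1 library gave 45 to 87, the highest without 8 h replicate 1. The members called lower at 8 h numbered 48 to 51 in all alternatives run, where 1251 to 3569 of all transcripts were called lower. Those called higher at 24 h against 8 h numbered 45 to 51, where 778 to 2334 of all transcripts were called higher. The rule used both contrasts, so these member counts say nothing beyond the choice of members. Between 24 h and 0 h, 8 members were called (2562 of all transcripts), 15 without the filter on low counts (4353 of all), 1 at adjusted p under 0.01 (1010 of all), and 1 to 9 with 1 library left out: 1 when it was 24 h replicate 1, 2 when 0 h replicate 3, and 5 when 0 h replicate 2 or 24 h replicate 2 or 3. Among the 69 tested neighbours within 5 ID numbers, 21 fell at 8 h and 18 rose at 24 h against 8 h. At adjusted p under 0.01 these were 13 and 11 (1251 and 778 of all transcripts, against 2426 and 1853 at 0.05). With 1 library left out they were 12 to 22 and 11 to 20. Of all tested transcripts, 4.34% to 7.07% then fell and 2.35% to 5.73% rose. Over the 4 named transcripts and 3 contrasts, 171 of the alternative values kept direction and side of the threshold. The other 9 lost the call, all for 24 h against 0 h and most of them in R_Transcript_58739.p1. Its edgeR adjusted p in that contrast was 0.041 with all libraries and 0.148 without 0 h replicate 3. Same-numbered replicates deviated together in 3 of 9 pairs (correlation over 0.1, range -0.11 to 0.23). Pairs of different number ran from -0.26 to 0.23, so these correlations do not settle whether a shared number marks anything more. With a replicate block 51 members were called lower at 8 h and 51 higher at 24 h against 8 h. Between 24 h and 0 h, 11 were called. Calls over all transcripts were then 2534, 1923 and 2769, against 2426, 1853 and 2562 without the block. Members near the level floor rest on few counts at 8 h, which limits how low a level could be measured.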
